A study of Sus scrofa with 11 samples.

Results

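Blastocysts from pig oocytes that had reduced the dye brilliant cresyl blue (ICSI BCB- blastocysts) were compared with blastocysts from oocytes that had kept it (ICSI BCB+ blastocysts). The comparison used the 7 arrays that the staining and insemination labels assign to these groups, out of 11 arrays in the series, with 3 arrays for ICSI BCB- and 4 for ICSI BCB+. Cumulus-oocyte complexes from abattoir ovaries had been held for 60 min in BCB, sorted by colour and matured in vitro for 44 h with FSH and LH. The metaphase II oocytes of both groups were then fertilised by intracytoplasmic sperm injection (ICSI), with no mitochondria added, and cultured to day 7. Each blastocyst was frozen on its own. Agilent spike-in RNA was added before the RNA was extracted and linearly amplified, and 1.8 µg of amplified RNA was labelled with Cy3 for a 1-colour Agilent pig array. The remaining 4 arrays held blastocysts from BCB- oocytes that received mitochondrial isolate together with the sperm (mICSI BCB-); they entered the estimate of the spread and are given below only beside the values of the ICSI groups. The description text of the mICSI BCB- samples names BCB+ oocytes, whereas their titles, source names and staining labels say negative, and the latter were used. No label says whether blastocysts of 1 group shared donors, oocyte collections or culture drops, so p-values measure only the spread between these embryos.

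BCB is decolourised by glucose-6-phosphate dehydrogenase, the first enzyme of the pentose phosphate pathway. Growing oocytes have high activity of this enzyme and lose the colour, whereas oocytes that have completed growth stay blue. BCB- oocytes typically carry fewer copies of mitochondrial DNA and develop to blastocyst less often. A blastocyst consists of an inner cell mass, from which the fetus develops, and the trophectoderm, which contributes to the placenta. As whole embryos were lysed, fewer cells of a type and less RNA per cell cannot be told apart. Probes carry only an ID in the files, with no gene name beside it. Lineage markers and metabolic genes were therefore not examined, and the results concern probes.

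The 3 slides did not hold the groups evenly. Slide 1 carried replicates 1 and 2 of ICSI BCB+. Slide 2 carried the other two ICSI BCB+ embryos together with replicates 1 and 2 of ICSI BCB-. The remaining ICSI BCB- embryo, replicate 3, was on slide 3. Of 43795 non-control probes, 42 had an outlier flag on at least 1 array and were left out. No spot was saturated, and 33149 of the remaining 43753 probes passed the filter on dim signals and were tested. The number of arrays limits the precision of every comparison.

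The signal of the embryo probes relative to the spike-ins was higher in ICSI BCB- blastocysts. The measure was the log2 75th percentile of the processed signal over all non-control probes, minus the mean log2 signal of 8 E1A_r60 spike-in sequences, which target no pig gene and were well above background on all arrays. The values in ICSI BCB+ replicates 1 to 4 were -5.78, -6.04, -6.10 and -6.66. The values in ICSI BCB- replicates 1 to 3 were -4.29, -4.97 and -5.47. Every ICSI BCB- embryo lay above every ICSI BCB+ embryo. The means were -4.91 ± 0.59 (SD, n = 3) and -6.14 ± 0.37 (SD, n = 4), a difference of 1.23 on the log2 scale, or 2.35-fold. A two-sided exact permutation test gave p = 0.0286, the smallest value that the 35 assignments of 3 and 4 embryos allow, and p = 0.114 after Benjamini-Hochberg adjustment over the 4 whole-array measures tested. On slide 2 alone, where 2 embryos of each group were hybridised together, the difference was 1.75.

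For neither term of this measure, taken alone, did the exact permutation test resolve a difference between the groups. The 75th percentile of the processed signal was 374, 529, 556 and 497 in ICSI BCB+ replicates 1 to 4. It was 1148, 885 and 473 in ICSI BCB- replicates 1 to 3. The first pair of ICSI BCB- embryos exceeded all ICSI BCB+ embryos, but replicate 3 lay within their range. The log2 difference of 0.70 between the group means was not resolved with so few embryos (two-sided exact permutation test, p = 0.143). The mean log2 spike-in signal was 14.53 ± 0.21 (SD, n = 3) in ICSI BCB- and 15.06 ± 0.54 (SD, n = 4) in ICSI BCB+ blastocysts. This difference of -0.54 was not resolved either (two-sided exact permutation test, p = 0.20). On the measure relative to the spike-ins, the mICSI BCB- arrays were at -5.19, -6.43, -5.28 and -6.98, all below ICSI BCB- replicates 1 and 2. Replicates 1 and 3 of mICSI BCB- lay above ICSI BCB- replicate 3 and all ICSI BCB+ embryos. Replicate 2 lay within the ICSI BCB+ range, and replicate 4 lay below all ICSI embryos. Whether the amount of embryo RNA, its amplification or the amount of spike-in added set these values was not tested.

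**Figure D1:**
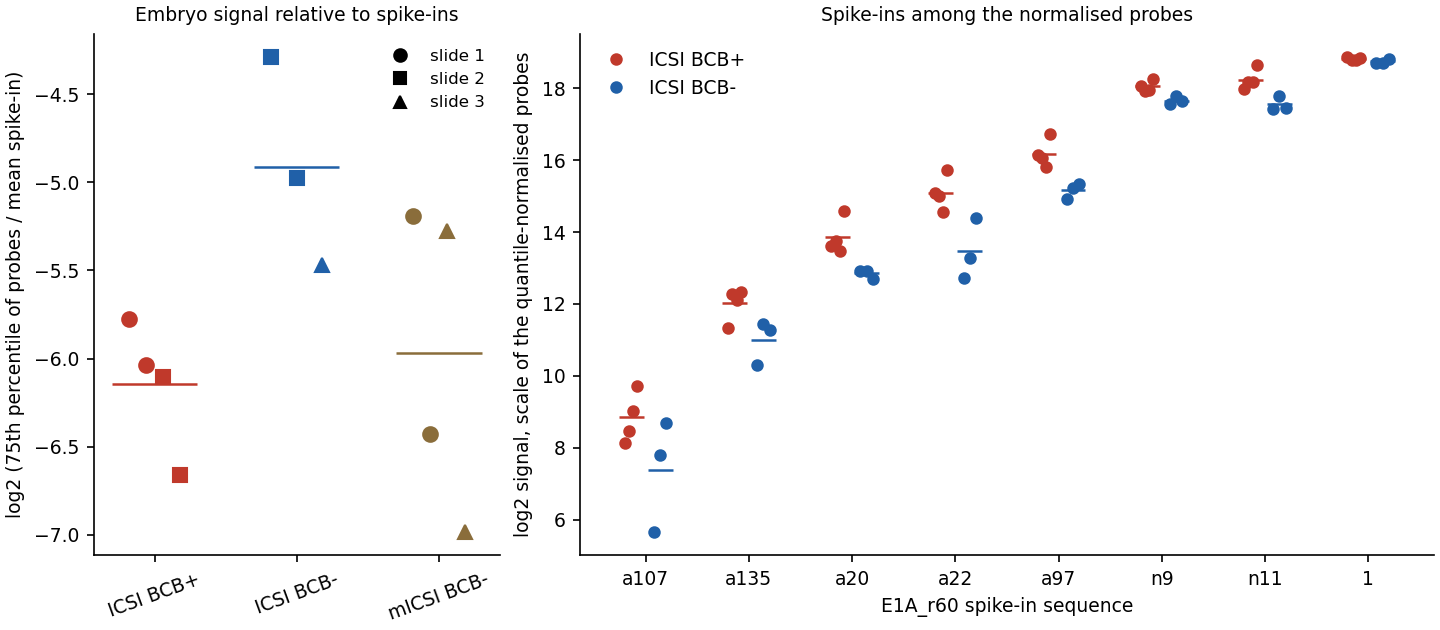
Left, log2 of the 75th percentile of the probe signal minus the mean log2 signal of 8 spike-in sequences, 1 point per blastocyst, with symbols for slides and lines for group means; the 3 ICSI BCB- points, at -4.29 to -5.47, all lie above the 4 ICSI BCB+ points. Right, log2 signal of each spike-in sequence placed on the scale of the quantile-normalised probes, 1 point per array and lines for means; every sequence has the lower mean in ICSI BCB-.

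Placed on the scale of the quantile-normalised probes, all 8 spike-in sequences had the lower mean in the ICSI BCB- group. For E1A_r60_a22 the log2 values were 15.08, 14.99, 14.56 and 15.71 in ICSI BCB+ and 12.71, 13.29 and 14.38 in ICSI BCB- replicates, in order of replicate number. The groups did not overlap, and the means differed by -1.63. For E1A_r60_a20, a97, n11 and n9 the groups also did not overlap, with differences of -1.01, -1.02, -0.68 and -0.39. Each of these 5 sequences reached the smallest p of the two-sided exact permutation test (p = 0.0286, and 0.0457 after adjustment over the 8 sequences). The differences for E1A_r60_a107 (-1.46, exact permutation p = 0.143), E1A_r60_a135 (-1.01, exact permutation p = 0.0857) and E1A_r60_1 (-0.07, exact permutation p = 0.143) were not resolved. All sequences share the scaling of their array and were added together, so they are not separate observations of the embryos. Their place among the normalised probes restates the contrast of embryo and spike-in signal given above and is no further support for it. E1A_r60_1, the brightest, ranged only from 425580 to 480020 in processed signal over the 7 arrays, whereas E1A_r60_a107 ranged from 97.6 to 781.

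The faintest spike-ins were not measured on every array. E1A_r60_a104 was well above background at 32 of 32 spots on ICSI BCB+ replicates 2 and 4 and on ICSI BCB- replicate 3. On ICSI BCB+ replicates 1 and 3 this held for 5 of 32 and 3 of 31 spots, and on ICSI BCB- replicates 1 and 2 for 1 of 32 and 0 of 30 spots. Both groups thus held embryos in which the sequence was measured and embryos in which it was not. E1A_r60_3 was well above background on no array.

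Detection of the embryo probes was similar in extent in both groups. Probes well above background made up 69.4, 70.5, 69.2 and 68.0% of the non-control probes in ICSI BCB+ replicates 1 to 4. They made up 72.2, 69.2 and 71.4% in ICSI BCB- replicates 1 to 3. The groups overlapped, and the difference of 1.68 percentage points was not resolved (two-sided exact permutation test, p = 0.171). Of the 43753 probes, 25058 (57.3%) were well above background on all 7 arrays, 7029 (16.1%) on none and 11666 (26.7%) on some. Detection that varied among embryos of 1 group was common, at 8657 probes (19.8%) within ICSI BCB+ and 7038 (16.1%) within ICSI BCB- blastocysts.

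**Figure D2:**
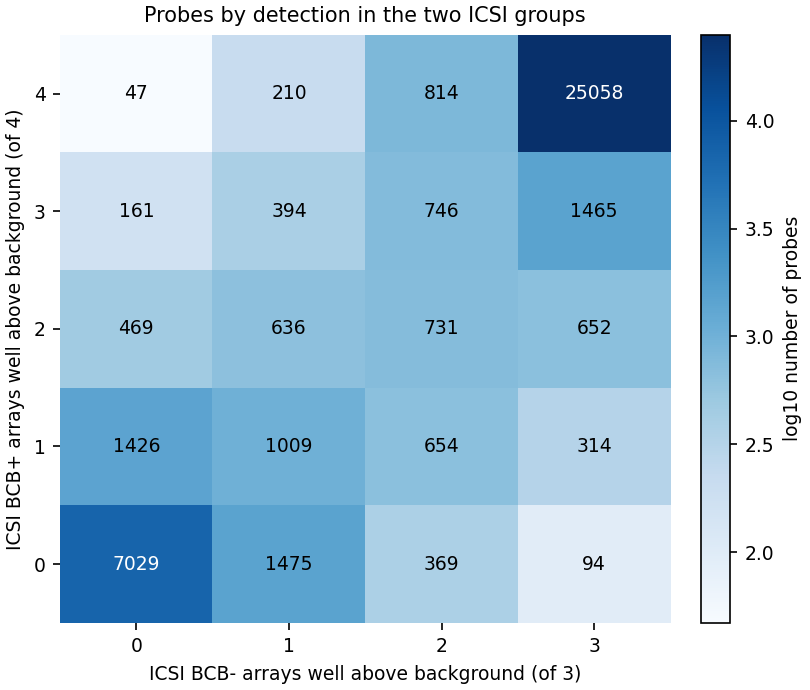
Number of probes by how many of the 4 ICSI BCB+ arrays (vertical axis) and of the 3 ICSI BCB- arrays (horizontal axis) were well above background, with colour for the log10 number. The 94 probes gained in ICSI BCB- are at the lower right and the 47 lost are at the upper left; 25058 were detected on all 7 arrays.

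A complete switch between the groups was rare. Detection was gained in every ICSI BCB- embryo and absent from every ICSI BCB+ embryo for 94 probes (0.215%), and was lost, that is present in every ICSI BCB+ and absent from every ICSI BCB- embryo, for 47 probes (0.107%). All of these probes passed the filter on dim signals, which they met through the group in which they were detected. As the groups differ in size, the gained and lost counts ask for different numbers of detected arrays and are not directly comparable. The gained probes had a median log2 signal of 5.86 in the ICSI BCB- group (range 4.57 to 9.10), and the lost probes had 4.82 in the ICSI BCB+ group (range 4.45 to 9.12). The detection limit of an array, taken as its lowest signal well above background, ranged from 4.06 to 4.48 on this scale over the 7 arrays. For a probe without measured signal the fold is a bound, taken as the mean of the bright group against, on each array of the dim group, the higher of the probe's own signal and that limit. The median of these bounds was at least 2.86-fold higher for the gained probes and at least 1.52-fold lower for the lost probes, ICSI BCB- against ICSI BCB+. It was over 2-fold for 62 of the 94 gained and 7 of the 47 lost probes, and over 10-fold for 5 and 2.

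The mICSI BCB- arrays were not used to choose these probes. Of the 94 gained probes, 5 were well above background on all 4 mICSI BCB- arrays, 18 on none and the others on 1 to 3. Of the 47 lost probes, 1 was well above background on all 4 and 16 on none. Per mICSI BCB- array, replicates 1 to 4, 51.1, 36.2, 61.7 and 22.3% of the gained probes were well above background. Over all probes these arrays had 67.5, 62.9, 69.8 and 59.4% well above background, in the same order. Of the lost probes, 19.1 to 27.7% were well above background per array. The detection limits of mICSI BCB- replicates 1 to 4 were 4.52, 4.94, 4.28 and 5.28 on the log2 scale. On replicates 2 and 4 the limit exceeded 4.82, the median signal of the lost probes in ICSI BCB+ blastocysts. The shares of these dim probes are therefore not a like comparison with those over all probes.

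Across the 33149 tested probes, effect sizes were moderate and errors were of like size. The log2 fold change, ICSI BCB- over ICSI BCB+, had a median of -0.09, with 25th and 75th percentiles of -0.48 and 0.44 and 5th and 95th percentiles of -1.26 and 1.68. The median absolute log2 fold change was 0.46, against a median standard error of 0.51. In 37.5% of probes the difference between group means was larger than the SD of that probe within the ICSI groups. Differences over 2-fold were found for 6624 probes (19.98%), of which 4000 were higher in ICSI BCB- blastocysts. Differences over 5-fold and over 10-fold were found for 1109 and 259 probes.

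Dim and unevenly detected probes gave the larger differences. When the probes were divided by mean signal into 4 bins of equal size, the share of probes over 2-fold apart was 25.6, 22.2, 21.0 and 11.2% from the dimmest to the brightest bin. Probes well above background on all 7 arrays had a median absolute log2 fold change of 0.41, and those detected on some of the 7 had 0.77. The share of probes past the unadjusted threshold given below ran the other way, at 1.67, 1.73, 2.64 and 2.91% over the same bins. The SD of a probe within the ICSI groups had a median of 0.81 in the dimmest and 0.53 in the brightest bin.

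After Benjamini-Hochberg adjustment, limma called 6 of the 33149 probes (0.0181%) at a false discovery rate of 0.05, of which 4 (0.0121%) were higher and 2 (0.00603%) lower in ICSI BCB- blastocysts. Of these 6, 2 were gained probes, with no ICSI BCB+ array well above background. Ranked by p, the third was well above background on 2 of 4 ICSI BCB+ arrays. The fourth was so on 1 of 3 ICSI BCB- arrays. The sizes and p-values of these calls rest in part on unmeasured signals. With slide as a fixed block limma called 1 probe, which was higher, and the other 5 of the 6 had adjusted p-values of 0.085 to 0.20. With slide as a random block limma called 6. Elsewhere in these results, slide as a block means the fixed block. At an unadjusted limma p under 0.01 with a difference over 2-fold, 741 probes (2.24%) passed, 558 (1.68%) higher and 183 (0.552%) lower. The former had a median log2 fold change of 2.05 and the latter of -1.55, with a median standard error of 0.50 over both. With slide as a block, all 741 kept their direction, and 390 of the 558 and 95 of the 183 still passed the threshold. On slide 2 alone, 468 of the 558 and 159 of the 183 could be tested and all kept their direction, but 248 and 20 passed. Both checks reuse arrays on which the probes were chosen, so a kept direction is favoured by the choice and is not independent support. Of the 741 probes, 541 were well above background on all 7 arrays (398 higher and 143 lower). A further 56 that were higher and 18 that were lower had no array of the dimmer group well above background.

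**Figure D3:**
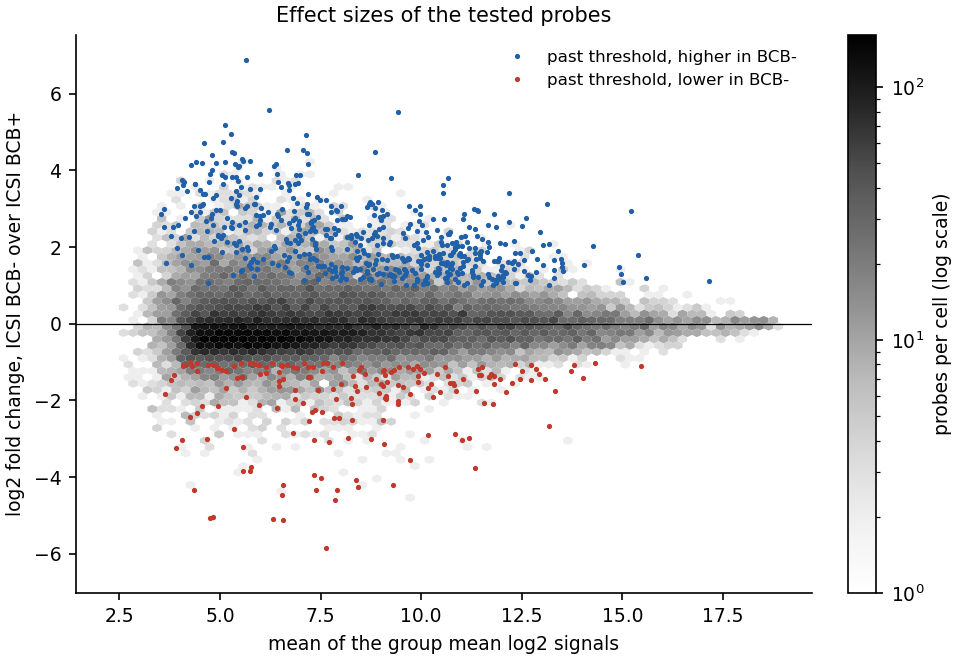
Log2 fold change of ICSI BCB- over ICSI BCB+ blastocysts against the mean of the group mean log2 signals for the 33149 tested probes, with grey cells for the number of probes on a log scale. Points are the 558 probes higher (blue) and 183 lower (red) past an unadjusted limma p under 0.01 with over 2-fold difference; differences are widest among dim probes.

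The split of these 741 probes, 75.3% higher in ICSI BCB-, depended on the scaling. Of the same 33149 tested probes, scaling to the 75th percentile gave 527 higher and 258 lower (67.1% higher). Scaling by the spike-ins gave 2304 higher and 4 lower (99.8% higher). The median log2 fold change over all tested probes was -0.19 with the 75th percentile and 1.04 with the spike-ins. Both scalings shift all probes of an array alike.

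All 3 ICSI BCB- embryos lay above all 4 ICSI BCB+ embryos for 1287 probes (3.88%), and all lay below for 2919 probes (8.81%). Without a group difference, 1 of the 35 assignments of embryos would place all 3 ICSI BCB- embryos highest and 1 would place them lowest. Some non-overlap would thus arise without a difference, and the counts were not tested against it. The lower set was the more numerous, whereas among the 741 probes the higher set was. The gap between the groups was small for most of these probes, with a median of 0.27 on the log2 scale for the higher and 0.18 for the lower set. It exceeded 1 for 150 of the higher and 42 of the lower probes. Of the 33149 tested probes, scaling to the 75th percentile gave 1160 higher and 3230 lower, an imbalance in the same direction. Scaling by the spike-ins gave 10927 higher and 32 lower of these and reversed it, so the direction of the imbalance depended on the scaling.

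In mICSI BCB- blastocysts the medians over the higher and over the lower probes fell between those of the ICSI groups. For the 558 higher probes the median of the group mean log2 signals was 7.46 in ICSI BCB+, 8.73 in mICSI BCB- and 9.50 in ICSI BCB- blastocysts. For the 183 lower probes it was 9.25, 8.04 and 7.02. Over all tested probes the medians were 7.38, 7.40 and 7.42. The probes were chosen for their difference between the ICSI groups, so the order is given as a description and was not tested.

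The 4 probes named are those with the smallest limma p in each direction, over all tested probes and over probes detected on all 7 arrays. Probe EMPV1_40508 was detected only in ICSI BCB- blastocysts among the 11 arrays. Its log2 signal was 9.12, 9.93 and 8.23 in ICSI BCB- replicates 1 to 3, and it was not well above background in any ICSI BCB+ embryo, where the recorded values were 2.19 to 2.26. The ICSI BCB- group exceeded the ICSI BCB+ group by at least 26.9-fold (limma log2 fold change 6.88 ± 0.36, standard error; adjusted p = 9.5e-05). With slide as a block the log2 fold change was 6.89 and the adjusted p of limma 0.0027. These limma values rest on ICSI BCB+ and mICSI BCB- signals that were not measured above background. The SD of those signals was 0.027 and 0.16, against 0.85 in ICSI BCB-, so the p-values do not measure the spread between embryos. The filter asked for 3 detected arrays, which this probe met only through the ICSI BCB- group. Leaving out any ICSI BCB- array or using slide 2 alone therefore removed the probe from the test. Probe EMPV1_10985 was well above background in all 11 blastocysts. Its log2 signal was 5.29, 5.62, 5.72 and 5.83 in ICSI BCB+ and 8.88, 8.09 and 7.94 in ICSI BCB- replicates, in order of number. The groups lay over 2 log2 units apart, at a log2 fold change of 2.69 with a standard error of 0.33 (adjusted p = 0.048, limma). A block for slide raised the adjusted p of limma to 0.20. In mICSI BCB- blastocysts the values were 5.45 to 6.37, below all ICSI BCB- embryos.

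Probe EMPV1_06422 was lower in ICSI BCB- blastocysts. Its log2 signal was 8.25, 8.51, 9.80 and 8.59 in ICSI BCB+ replicates 1 to 4, and 4.04, 3.64 and 5.29 in ICSI BCB- replicates 1 to 3, of which only replicate 3 was well above background. The groups did not overlap, but the size of the difference rests partly on the 2 ICSI BCB- signals that had not been measured above background. For these values limma gave -4.46 ± 0.53 (log2 fold change ± standard error) with an adjusted p of 0.048, or 0.17 when slide was a block. The highest mICSI BCB- value was 5.92, with 2 of the 4 arrays well above background, and all lay below every ICSI BCB+ embryo. Probe EMPV1_41645 was detected on all 11 arrays. Its log2 signal was 9.25, 9.35, 9.22 and 9.51 in ICSI BCB+ and 6.96, 7.04 and 7.68 in ICSI BCB- replicates. The ICSI BCB+ values spanned less than those of ICSI BCB-, and limma gave -2.10 ± 0.25 (log2 fold change ± standard error) with an adjusted p of 0.048, or 0.20 when slide was a block. The mICSI BCB- values of 7.49 to 7.82 also lay below every ICSI BCB+ embryo. Scaled by the spike-ins, the log2 fold changes of EMPV1_06422 and EMPV1_41645 were -3.35 and -0.89 (limma adjusted p = 0.12 and 0.25), or -4.39 and -1.93 relative to the median of all probes.

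**Figure D4:**
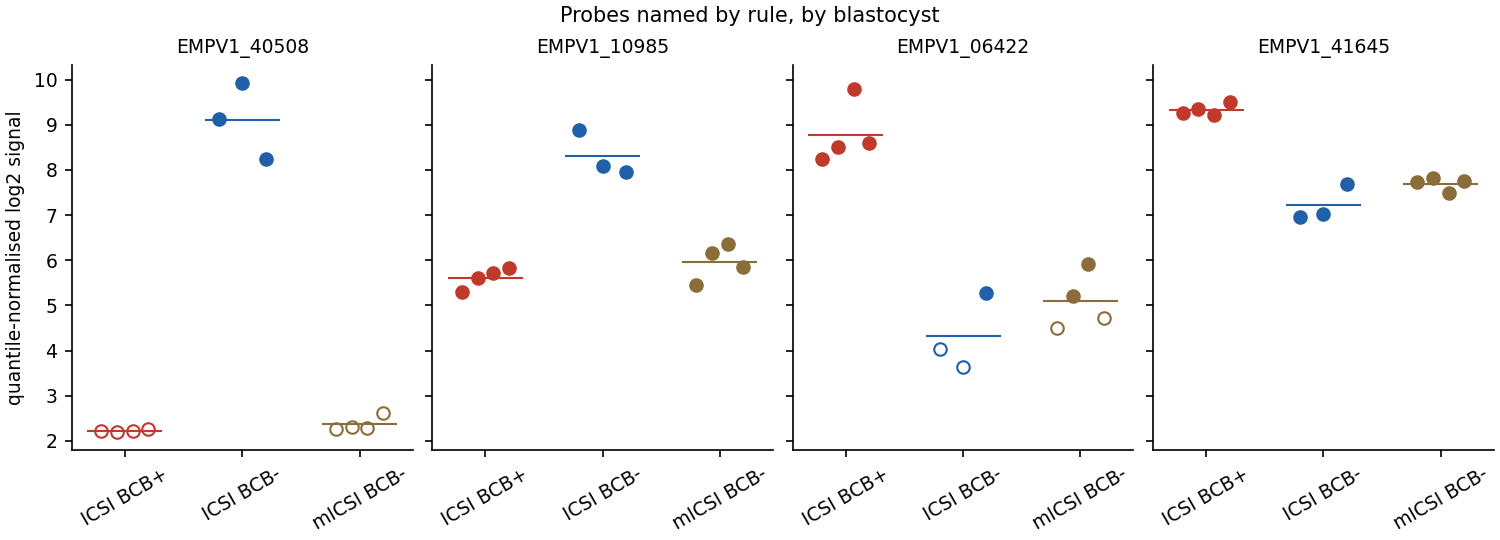
Quantile-normalised log2 signal of 4 probes in each blastocyst, with lines for group means, filled points for signals well above background and open points for signals that were not. EMPV1_40508 is measured in the 3 ICSI BCB- embryos only, and in the other panels the ICSI BCB- points do not overlap the ICSI BCB+ points.

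The spread between embryos was of like size in both groups. The root of the mean within-group variance of the log2 signal over the tested probes was 1.13 for the 4 ICSI BCB+ and 1.03 for the 3 ICSI BCB- blastocysts, and the median SD of a probe was 0.58 and 0.53. The SD exceeded 2 for 2975 probes in ICSI BCB+ and 2275 in ICSI BCB- blastocysts, of which 998 were the same probes (33.5 and 43.9% of these sets). From the dimmest to the brightest bin, the spread fell from 1.32 to 0.75 in ICSI BCB+ and from 1.28 to 0.71 in ICSI BCB- blastocysts. In each bin the ICSI BCB+ group had the larger value, by 0.04 to 0.17. These are descriptions of 4 and 3 embryos, and the difference in spread was not tested.

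Embryos of 1 group differed from each other nearly as much as embryos of different groups. On average 32.1% of probes were over 2-fold apart in the 6 pairs of ICSI BCB+ embryos, 31.6% in the 3 pairs of ICSI BCB- embryos and 34.99% in the 12 pairs between groups. The ranges were 28.6 to 36.9%, 26.4 to 34.8% and 32.5 to 37.2%, so that the 3 kinds of pairs overlapped. Pairs on the same slide were closer within a group, at 29.8% (2 pairs) for ICSI BCB+ and 26.4% (1 pair) for ICSI BCB-, but not between groups, at 36.2% (4 pairs). Detection differed at 10.8, 10.7 and 11.3% of probes on average within ICSI BCB+, within ICSI BCB- and between groups. Pairs share embryos and are not independent, and no test was made on them. Among ICSI BCB- embryos, replicate 3, the only one on slide 3, was farthest from the rest of its group, with 31.3% of probes over 2-fold from the mean of the others, against 26.7 and 25.9% for replicates 1 and 2. Replicate 1 of ICSI BCB+ had a like share in its own group, at 31.2%. Without ICSI BCB- replicate 3, limma called 80 of 32684 tested probes at the false discovery rate of 0.05 in place of 6. All ICSI BCB- embryos left were then on slide 2. With replicate 3 but without ICSI BCB- replicate 1 or replicate 2 limma called 0. An unadjusted limma p under 0.05 was then found for 2292 of 32633 and 1998 of 32785 tested probes. Without any 1 of the ICSI BCB+ embryos, 1 to 3 of at least 32698 tested probes were called.

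**Figure D5:**
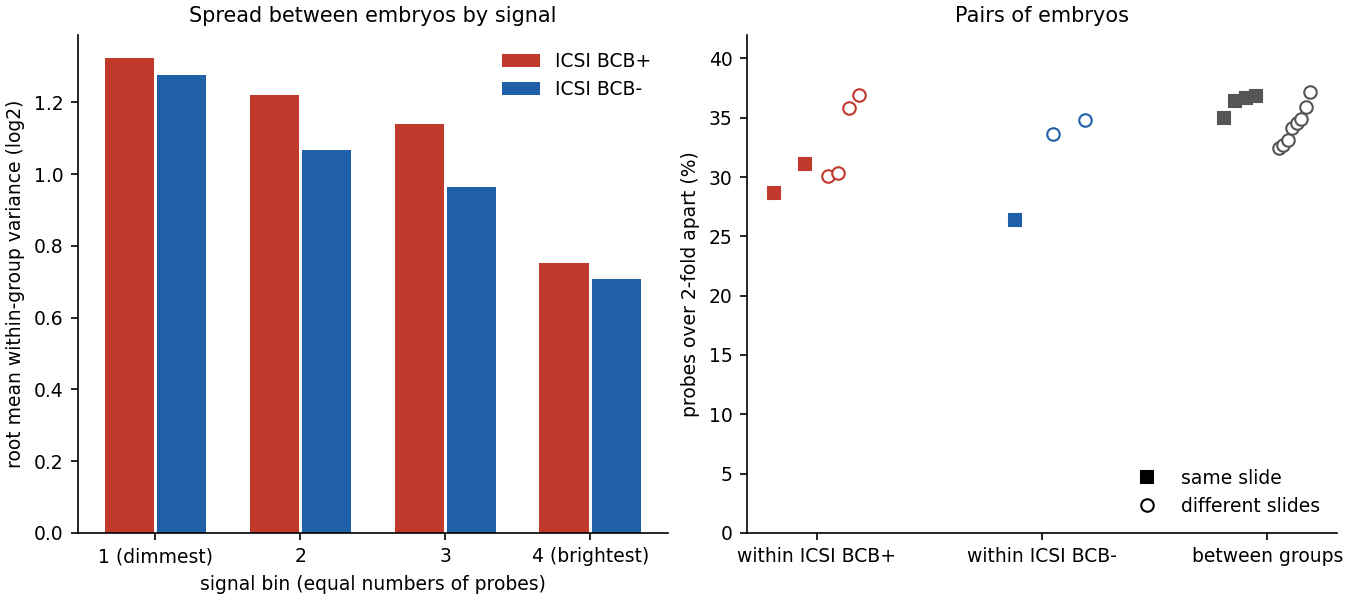
Left, root of the mean within-group variance of the log2 signal in 4 bins of mean signal, dimmest to brightest, bars starting at 0, for 4 ICSI BCB+ and 3 ICSI BCB- blastocysts; it falls from 1.32 to 0.75 and from 1.28 to 0.71. Right, percentage of probes over 2-fold apart in each pair of embryos, within and between groups, filled for pairs on the same slide; the 12 pairs between groups, at 32.5 to 37.2%, overlap the pairs within groups.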

How the data were processed

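Single pig blastocysts were profiled on 1-colour Agilent arrays, 1 per array, and groups were taken from the sample labels. The authors deposited Feature Extraction (version 11.0.1.1) output, in which the processed signal is a linear intensity after background subtraction and spatial detrending, not normalised between arrays. The deposited flags, a score of 0 or 1 per spot, mark spots well above background, saturated or outlying. Quantile normalisation, which the methods name, was repeated here over 11 arrays and equalises total embryo signal. Values under 1 were raised to 1 before the log2 was taken. Probes that reached the 20th percentile and were well above background on 3 or more arrays were fitted with limma (version 3.58.1, R 4.3.3), 1 mean per group over all arrays; the methods do not give this array number. Amplification adds variation that 1 array per embryo cannot separate from differences between embryos.

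Two-sided exact permutation tests compared single values per array. The members of the comparison, the rule for named probes (smallest limma p in each direction, over all tested probes and over those detected on all 7 ICSI arrays) and the gene lists were chosen with earlier results of these data known. The gene lists were not analysed here, because probes are not paired with genes. The script was tested on simulated data. Alternatives were other scalings, normexp (offset 50, on median intensities), other filters and floor, slide or replicate number as a block, slide 2 alone, only 7 arrays, an intensity trend, the methods' t-test, another detection flag, and each array left out. Python 3.11.15 was used for tables and figures.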

Additional observations from a re-analysis of the deposited data

How the results depend on the processing

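The count of 6 probes at the false discovery rate of 0.05 was not stable. It stayed at 6 with slide as a random block, a floor of 10 or probes detected in every array of a group. It was 1 with slide as a fixed block, 75th percentile scaling, spike-in scaling, no filter or an intensity trend. It was 2 with normexp or probes detected in all arrays and 3 with 7 arrays. On slide 2 alone limma called 0 of 29002 tested probes, with 4240 at an unadjusted p under 0.05. Leaving out 1 array gave 0 to 80. Of 33149 probes tested, the unadjusted count of 741 became 2308 with spike-in scaling and 391 with the methods' t-test, which called 5 after Benjamini-Hochberg adjustment. With 1 array left out it was 394 (of 32785 tested) to 1032 (of 32684). Of the 14 other settings, 12 gave within 1.5 times 741. The share of these probes higher in ICSI BCB- was 66.1 to 75.8% with 1 array left out. The non-overlap counts under other scalings were added after the data had been seen.

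Deviations of same-numbered embryos of the ICSI groups correlated at 0.03, -0.01 and 0.06, and those of differently numbered embryos at -0.08 to 0.03. So few pairs cannot decide whether the replicate numbers paired the embryos. With the replicate number as a block 2 probes passed the false discovery rate and 694 the unadjusted threshold.

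The median absolute log2 fold change of 0.46 was 1.06 with spike-in scaling, 0.28 with normexp, 0.61 on slide 2 alone and 0.45 to 0.55 with 1 array left out. The spread was 0.79 (ICSI BCB+) and 0.74 (ICSI BCB-) over probes detected in all arrays and 1.06 and 0.97 with a floor of 10, and was 1.11 to 1.16 and 0.96 to 1.05 with 1 array left out. Requiring fewer arrays raises the counts of gained and lost probes by construction: 765 and 455 on slide 2 alone, and 138 to 252 and 76 to 176 with 1 array left out. With a less strict detection flag (signal positive and significant against background), 34 were gained and 70 lost, so that the lost probes became the more numerous, and the difference in detected share reversed to -0.907 points (two-sided exact permutation test, p = 0.20). The cause was not tested.

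Embryo signal relative to the spike-ins differed by 1.75 on slide 2 alone (exact permutation p = 0.333) and by 0.92 to 1.51 with 1 array left out (exact permutation p = 0.0667 to 0.10); each is the smallest p that its number of arrays allows. It differed by 0.84 to 1.30 with the median or mean of the probes or with any spike-in sequence left out, each at p = 0.0286 by exact permutation. The named probes were followed with slide or replicate number as a block, on slide 2 alone, with 7 arrays, under both other scalings and with 1 array left out. They kept their direction in each of these that tested them, which their choice by smallest p favours. Only EMPV1_40508 had an adjusted p under 0.05 in each that tested it. Its p-values do not measure spread between embryos, so this adds no support. The filter left it untested on slide 2 alone or without any 1 ICSI BCB- array. No probe passed 0.05 on slide 2 or without replicate 1 or 2.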
